A study of Mus musculus with 17 samples.

Results

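B8 and D3, mouse embryonic stem cell (ESC) lines, were compared by small RNA sequencing and examined for the microRNAs (miRNAs) transcribed antisense to the imprinted gene Rtl1. The members are the rows named miR-127, miR-136, miR-431, miR-433 and miR-434 (listed as mmu-miR-127-3p, mmu-miR-434-3p, mmu-miR-433-3p and so on, and written here without the prefix), each with a 5p and a 3p arm. They make 10 of the 1033 mature miRNAs in the table, and all 10 passed the filter on low values. The groups were B8 at day 0 (n = 3), B8 at day 7 (n = 3), D3 at day 0 (n = 3), D3 at day 7 (n = 2, the replicates numbered 2 and 3) and D3 at day 21 (n = 3). At day 0 the cells were undifferentiated ESCs, grown with serum and LIF on no feeder layer. Day 7 means embryoid bodies made in hanging drops, and day 21 means outgrowths of such bodies, both in KO-DMEM without LIF and with retinoic acid (RA), insulin, transferrin and selenium (ITS) and the N2 supplement. No genetic change was named for either line, and both lines received the same medium at a given day. Whether replicates came from separate cultures is not in the labels, so p-values measure only how far these samples spread, which may be technical.

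The Dlk1-Dio3 region of mouse chromosome 12 is imprinted. Dlk1, Rtl1 and Dio3 are expressed from the paternal copy, and the noncoding RNAs Meg3, anti-Rtl1, Rian and Mirg, with their miRNAs, from the maternal copy. Rtl1 (also called Peg11) is a gene derived from a retrotransposon and is needed in placenta and muscle. The anti-Rtl1 miRNAs lie on the strand opposite its coding exon, pair with the Rtl1 messenger along their whole length, and can direct its cleavage. In pluripotent mouse cells the maternal RNAs of the region are known as a sign of intact imprinting, and miR-127 and its neighbours are also abundant in brain and placenta.

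The mature sequences are shown because the seed (bases 2 to 8, in capitals) sets the targets of a miRNA other than the fully paired Rtl1. All 10 members matched a RefSeq entry (build GRCm38.p6), written 5′ to 3′ in the order of the hairpins on the plus strand.
miR-431-5p: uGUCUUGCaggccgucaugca
miR-431-3p: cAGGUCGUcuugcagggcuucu
miR-433-5p: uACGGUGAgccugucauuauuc
miR-433-3p: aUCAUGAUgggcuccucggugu
miR-127-5p: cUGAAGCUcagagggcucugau
miR-127-3p: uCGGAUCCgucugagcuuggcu
miR-434-5p: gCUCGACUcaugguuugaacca
miR-434-3p: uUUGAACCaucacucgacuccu
miR-136-5p: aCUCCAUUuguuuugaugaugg
miR-136-3p: aUCAUCGUcucaaaugagucuu
These are 10 distinct seeds, so the members share a place in the genome but no seed.

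The 5 hairpins lie within 4942 bases, chr12:109590447-109595388 on the plus strand of GRCm38.p6, in the order miR-431, miR-433, miR-127, miR-434 and miR-136. The gaps between neighbours are 1177, 1007, 1590 and 727 bases. Rtl1 covers chr12:109589193-109600330 on the minus strand, and each hairpin lies inside its coding exon. A complementary site of full length was found in the Rtl1 coding sequence for 10 of 10 members. The sites of 3 members that behaved differently below are shown as they read in the Rtl1 transcript, with the bases facing the seed in capitals.
Rtl1 site of miR-433-3p: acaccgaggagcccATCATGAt
Rtl1 site of miR-127-3p: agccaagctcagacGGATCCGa
Rtl1 site of miR-136-5p: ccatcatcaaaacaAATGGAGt
The table holds miRNAs only, so the level of Rtl1 itself was not measured.

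The B8 libraries held 138397 to 275271 miRNA reads at day 0 and 141823 to 256613 at day 7, and the D3 libraries held 56377 to 129486, 1008438 to 1060306 and 547213 to 743039 at days 0, 7 and 21. The deposited values are normalized signal, but the column totals ran from 46965.1 to 830401.5, a 17.7-fold range, so the libraries share no common total. Between D3 at day 0 and day 7 the median of all 521 miRNAs tested moved by 2.25 on the log2 scale. Each change is therefore given on the deposited scale and also relative to the median miRNA after rescaling by median-of-ratios factors ("relative" from here on). On the relative scale the same median was 0.27. The median in B8 between these days was -0.21 as deposited and -0.06 relative. In bulk samples like these, fewer cells of a type and less RNA per cell cannot be told apart. The miR-290 cluster, which marks ESCs, held 27.4% ± 1.59 of the day 0 miRNA signal in B8 and 22.1% ± 2.60 of that in D3 (SD, n = 3 each), and all but 1 of its 14 entries were detected in both. By this list the day 0 labels carry their marker in both lines. Other lists differed between the lines at day 0. On the relative scale 8 of 9 mesenchymal entries tested were lower in D3 than in B8 and 0 higher (median -4.56). Of 15 let-7 entries tested 11 were lower and 0 higher (median -2.43). Of all 521 miRNAs 15.7% were lower and 7.68% higher (limma, adjusted p under 0.05). What this means for the cells at day 0 was not tested.

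miR-127-3p was the most abundant member in every library and among the most abundant miRNAs of all. mmu-miR-127-3p had deposited values in B8 of 10329.6, 9575.05 and 8550.07 at day 0 and of 3383.38, 2847.71 and 3754.59 at day 7. In D3 they were 7955.41, 9554.14 and 6607.79 at day 0, 21603 and 21919.3 at day 7, and 16549.4, 16157.1 and 20615 at day 21. The B8 day 7 values were the lowest, below every other library, and the D3 day 7 values the highest. By group mean the order from low to high was B8 day 7 (3328.6 ± 456), D3 day 0 (8039.1 ± 1475), B8 day 0 (9484.9 ± 893), D3 day 21 (17774 ± 2468) and D3 day 7 (21761 ± 224), with SDs over 2 or 3 libraries. The 2 lines at day 0 did not differ beyond their spread, nor did D3 at days 7 and 21 (limma adjusted p = 0.384 and 0.364).

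Relative to the median miRNA the order changed. The relative mean of miR-127-3p was 3931.7 ± 524 (SD, n = 3) for B8 at day 7, and the pair of D3 libraries of that day stood at 9172.6 and 9350.9. It was 9545 ± 389 for B8 at day 0, 12514 ± 927 for D3 at day 21 and 16672 ± 733 for D3 at day 0 (SD, n = 3 each). B8 at day 7 was lowest on both scales, whereas D3 at day 0 moved from the next lowest to the highest. As a share of the miRNA signal, miR-127-3p made up 6.79% ± 0.336 and 1.92% ± 0.0764 in B8 at days 0 and 7, and 13.5% ± 0.730, 2.82% ± 0.308 and 7.93% ± 1.02 in D3 at days 0, 7 and 21 (SD). Outside miR-10a and miR-10b, which filled much of the day 7 signal, its share was 6.83% ± 0.335 and 3.42% ± 0.244 in B8, and 13.5% ± 0.735, 8.12% ± 0.265 and 9.12% ± 1.03 in D3. By this measure D3 at day 7 stood above B8 at day 0, and with miR-10a and miR-10b counted it stood below. miR-127-3p ranked first or second among all miRNAs in D3 at day 0, and between 7 and 10 in B8 at day 7.

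The other members were lower, the rarest by more than 3 orders of magnitude in each group mean. On the deposited scale mmu-miR-434-3p, the next most abundant by mean in each group, had means from 287.6 ± 96.0 in B8 at day 7 (SD, n = 3) to 2557.4 ± 1.63 in D3 at day 7 (SD, n = 2). miR-431-5p ran from 160.3 ± 12.6 in B8 at day 7 to 1416.8 ± 96.5 in D3 at day 7. miR-433-3p was lowest in D3 at day 0, at 90.0 ± 34.2, and highest on day 7 of the same line, at 636.5 ± 68.4. miR-127-5p and miR-433-5p were the rarest in all groups but B8 at day 7, at group means of 1.09 to 21.0 and 4.37 to 36.2. In B8 at day 7 the mean of miR-136-5p, 1.64, lay between them. The dominant arm was 5p for miR-431 and 3p for miR-433, miR-127 and miR-434, in every library. The plot of levels shows all of these values.

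**Figure D1:**
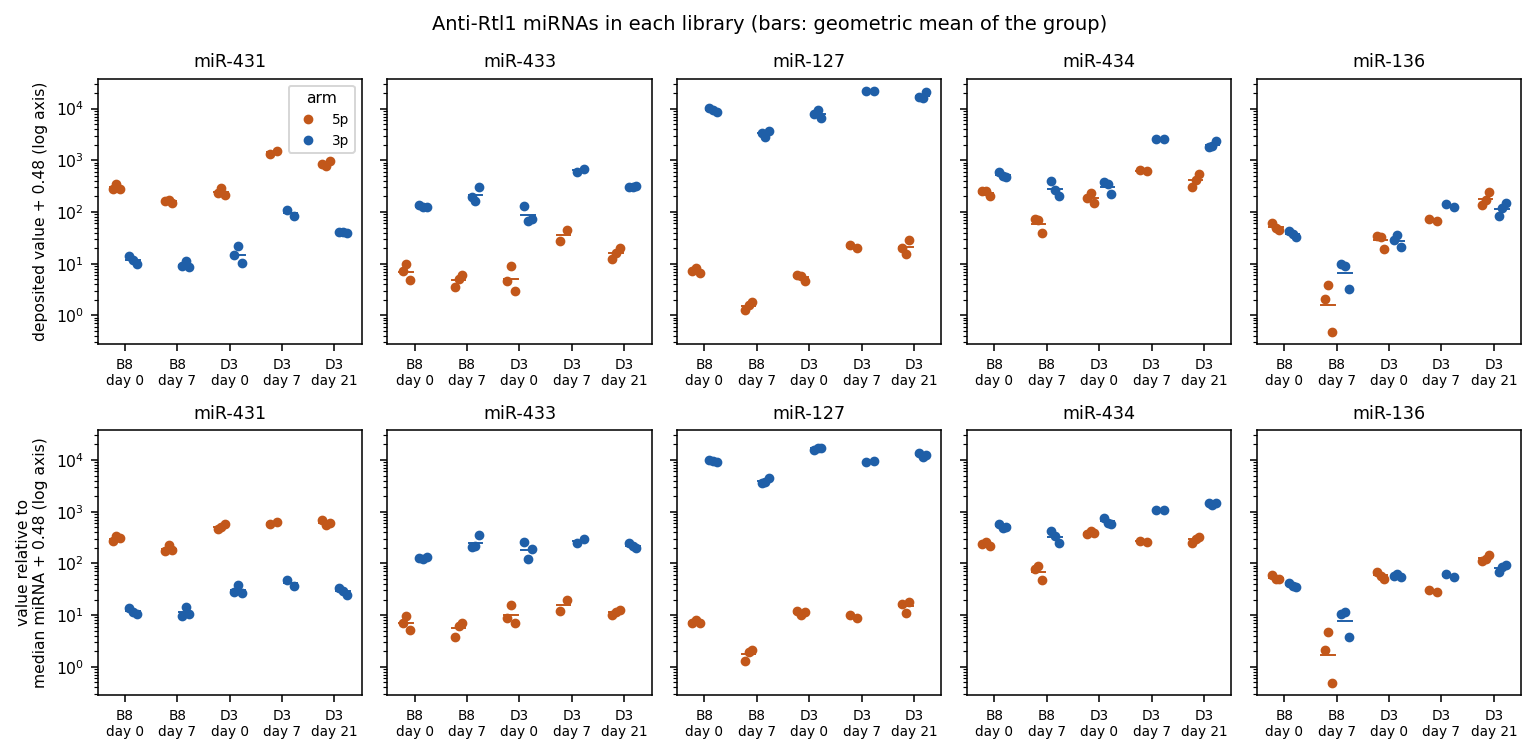
Level of each anti-Rtl1 miRNA in each library, as the deposited value plus 0.48 (upper row) and relative to the median miRNA plus 0.48 (lower row), both on log axes. Points are libraries, orange for the 5p arm and blue for 3p, and bars are geometric means of the 5 groups. miR-127-3p stands above the other members throughout, and the lowest point is a miR-136-5p library of B8 at day 7, with a value of 0.

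In B8, most anti-Rtl1 miRNAs fell between day 0 and day 7, while miR-433-3p rose on the deposited and relative scales. Of the 10 members 7 were lower and 1 was higher on the deposited scale, against 28.0% lower and 21.9% higher of all 521 miRNAs tested (limma, adjusted p under 0.05). On the relative scale the counts were again 7 and 1, against 25.7% and 26.9%. The median change of the members was -1.21 as deposited and -0.98 relative, and the direction of every member was the same on both scales.

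miR-127-3p fell by 1.52 ± 0.22 (SE) on the log2 scale, to a level 2.86-fold lower, with a limma adjusted p of 3.21e-06 (relative -1.29 ± 0.13, adjusted p = 3.98e-07). Its 3 day 7 values did not overlap those of day 0. miR-434-5p had values of 249.9, 259.4 and 198.7 at day 0 and 73.7, 69.4 and 38.4 at day 7. It was 4.01-fold lower (log2 change -2.002 ± 0.27, limma adjusted p = 1.03e-06). Its partner arm miR-434-3p went from 588.2, 491.2 and 472.7 to 392.7, 265.7 and 204.5, again without overlap, and fell by 0.89 ± 0.25 (limma adjusted p = 0.00447). miR-431-5p, the dominant arm of its hairpin, fell by 0.90 ± 0.21 (limma adjusted p = 0.00101). The low miR-431-3p and miR-433-5p passed the test on neither scale, at -0.31 (limma adjusted p = 0.434) and -0.55 (0.292).

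The largest change among the members was at miR-136, the last hairpin of the row. miR-136-5p had values of 60.7, 49.2 and 44.9 in B8 at day 0 and 1.57, 3.36 and 0 at day 7, which are 245 reads against 8 over 3 libraries each. The ratio of the groups, allowing for the reads that a unit of signal is worth, was 24.9, with a 95% exact interval of 12.4 to 58.3 that covers counting error only. The limma change was -5.05 ± 0.47 (adjusted p = 2.42e-09). Its size depends on the pseudocount and ran from -6.32 to -3.82 over the other pseudocounts, and edgeR on the recovered reads gave -4.37. miR-136-3p went from 42.9, 36.3 and 32.0 to 9.41, 8.39 and 2.74, a 5.68-fold fall (log2 change -2.50 ± 0.35, limma adjusted p = 1.92e-06). miR-127-5p, the minor arm of miR-127, also fell, from 32 reads to 4 in all, a ratio of 6.51 with an interval of 2.31 to 25.3 (limma adjusted p = 2.6e-05).

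mmu-miR-433-3p went the other way. Its values were 133.6, 121.8 and 121.8 in B8 at day 0 and 192.1, 164.5 and 297.8 at day 7. Every day 7 library lay above every day 0 library. The change was 0.75 ± 0.26 (limma adjusted p = 0.0193) and 0.98 ± 0.25 relative (adjusted p = 0.00393), or 1.68-fold and 1.97-fold. On the deposited scale the call was lost when 1 library was left out: without B8 day 7 replicate 3 the change was 0.50 (limma adjusted p = 0.121), and without B8 day 0 replicate 2 or 3 it was 0.72 (adjusted p = 0.0586 and 0.0513). It was also lost with equal column totals (0.44, adjusted p = 0.161) and with a limma prior without trend (adjusted p = 0.0554). As a share of miR-127-3p in the same library, which no scaling of libraries can alter, miR-433-3p was 1.33% ± 0.0830 at day 0 and 6.46% ± 1.27 at day 7 (SD, n = 3). The ranges, 1.27 to 1.42 and 5.68 to 7.93, did not overlap. This share also rises when miR-127-3p falls, and miR-127-3p was 2.86-fold lower at day 7 as deposited. It therefore shows a difference between the 2 miRNAs, and no rise of miR-433-3p by itself.

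In D3, all 10 members rose between day 0 and day 7 on the deposited scale and 0 fell, against 70.4% and 6.91% of all miRNAs tested (limma). Relative to the median miRNA 1 member was higher and 2 were lower, against 36.1% and 26.9% of all. The members' median of 2.41 as deposited, beside 2.25 for all miRNAs, became 0.13 beside 0.27. The comparisons of D3 at day 7 and at day 21 below share the day 0 libraries.

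miR-434-3p was higher at days 7 and 21 on both scales, but with equal column totals its day 7 change turned to -0.66 (limma adjusted p = 0.0243). Its values in D3 were 379.9, 345.0 and 222.4 at day 0, 2556.3 and 2558.6 at day 7, and 1779.0, 1918.7 and 2358.8 at day 21. No library of day 7 or day 21 reached down to those of day 0. The change to day 7 was 3.05 ± 0.28 (limma adjusted p = 5.32e-10) and 0.75 ± 0.20 relative (adjusted p = 0.00295), and that to day 21 was 2.70 (adjusted p = 7.06e-10) and 1.14 ± 0.18 relative (adjusted p = 2.51e-05). Against miR-127-3p in the same library it stood at 3.92% ± 0.753 at day 0, 11.8% ± 0.113 at day 7 and 11.4% ± 0.568 at day 21 (SD).

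miR-127-3p turned direction with the scale in D3. It was 1.45 ± 0.25 higher at day 7 as deposited (limma adjusted p = 1.22e-05) and -0.85 ± 0.15 relative to the median miRNA (adjusted p = 9.12e-05). At day 21 the values were 1.15 (adjusted p = 5.67e-05) and -0.42 ± 0.13 (adjusted p = 0.0107), and the relative call was lost without D3 day 21 replicate 2 (-0.36, adjusted p = 0.0596). The libraries of D3 at day 7 carried 65.3% ± 2.66 (SD, n = 2) of their signal in miR-10a and miR-10b, against 0.113% ± 0.0412 at day 0 (SD, n = 3). With equal column totals the day 7 change of miR-127-3p was -2.26, against -0.73 when totals were equalised without miR-10a and miR-10b. Outside miR-10a and miR-10b the 10 members together held 15.0% ± 0.689 of the signal at day 0, 10.2% ± 0.357 at day 7 and 11.2% ± 1.16 at day 21.

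Other members of D3 at day 7 had deposited changes from 1.29 to 2.87. miR-433-3p changed by 2.87 and by 0.58 relative (limma adjusted p = 2.8e-09 and 0.0878). It had values of 129.4, 67.4 and 73.3 at day 0, spread more widely than in B8, and 588.2 and 684.9 at day 7. The relative change passed the test without D3 day 0 replicate 1 (0.84, adjusted p = 0.0155). miR-434-5p was lower on the relative scale at -0.55 ± 0.23, with a limma adjusted p of 0.0499 that rose to between 0.062 and 0.176 when any 1 library was left out. On the relative scale miR-136-5p changed by -0.98 ± 0.65 (limma adjusted p = 0.208). Its deposited rise was the smallest, 1.29 ± 0.53 (limma adjusted p = 0.0288). That call was lost without D3 day 0 replicate 3 (1.03, adjusted p = 0.108) and without D3 day 7 replicate 2 or 3 (adjusted p = 0.112 and 0.0848).

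**Figure D2:**
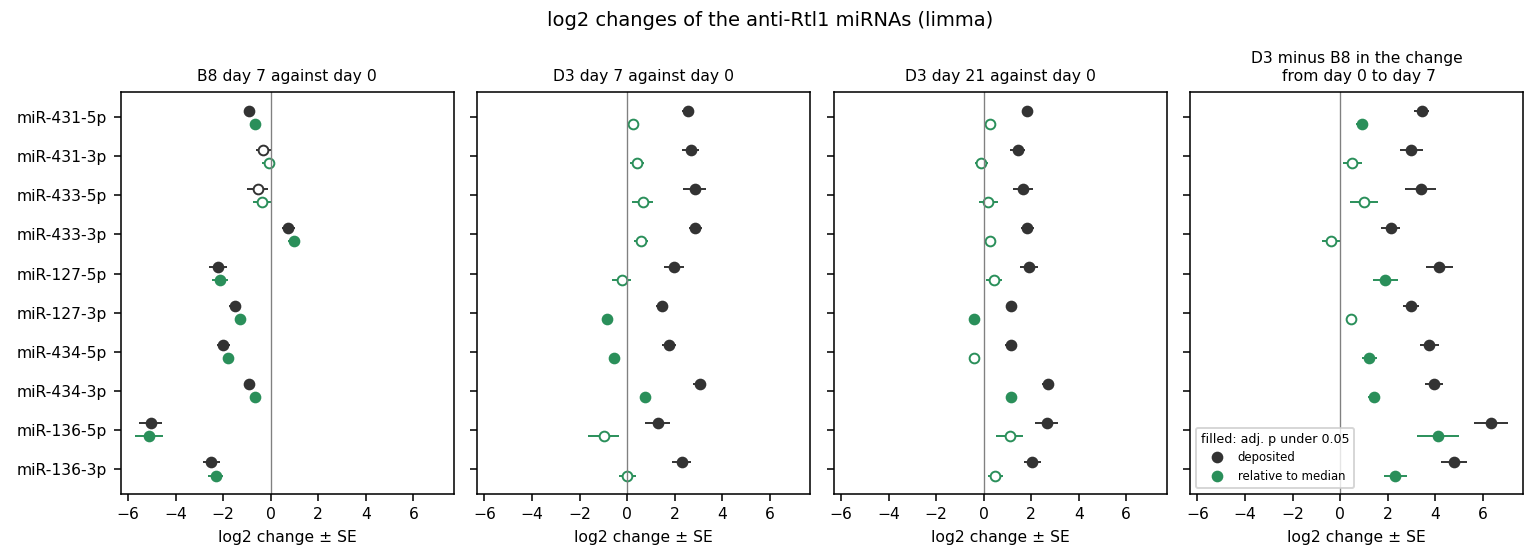
log2 change of each anti-Rtl1 miRNA with its SE, as deposited (black) and relative to the median miRNA (green), in 4 comparisons, with filled points for a limma adjusted p under 0.05. In B8 both scales put 7 members lower and miR-433-3p higher, whereas in D3 the deposited changes are all above 0 and the relative ones lie from -0.98 to 1.14.

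Between day 0 and day 21 in D3 all 10 members were again higher as deposited and 0 lower, against 65.3% and 10.2% of all miRNAs. Relative to the median 1 was higher (miR-434-3p) and 1 lower (miR-127-3p), against 38.0% and 25.0%. Between day 7 and day 21, 1 member was higher and 3 were lower as deposited, against 8.06% and 31.5%, and 2 were higher and 0 lower relative, against 16.1% and 10.4%.

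miR-136-5p was the member that was higher at day 21 than at day 7 on both scales. Its values in D3 were 33.6, 32.9 and 19.2 at day 0, 71.3 and 65.8 at day 7, and 135.2, 166.9 and 240.2 at day 21. As deposited the 3 days did not overlap and day 0 was lowest. The relative values were 67.2, 57.8 and 50.3 at day 0, and 30.3 and 28.1 at day 7. At day 21 they were 109.2, 119.2 and 147.2, so on that scale day 7 was lowest. The change from day 7 was 1.35 (limma adjusted p = 0.0434) and 2.08 relative (adjusted p = 0.0258). Leaving out any 1 library of these groups took the deposited call away, with adjusted p from 0.0551 to 0.172. The relative call was lost without D3 day 7 replicate 2 or 3 or D3 day 21 replicate 2 or 3 (2.13, 2.02, 2.11 and 1.96, adjusted p = 0.12, 0.137, 0.0549 and 0.0815). The other member higher on the relative scale was miR-127-3p, at 0.43 (limma adjusted p = 0.0369), and leaving out any 1 library of D3 at days 7 and 21 took that call away (0.38 to 0.49, adjusted p from 0.0536 to 0.182). The 3 that were lower as deposited were miR-433-3p at -1.03 (limma adjusted p = 0.00677), miR-431-5p at -0.72 (0.0185) and miR-431-3p at -1.24 (0.00708), and none of the 3 passed on the relative scale. These calls also rested on single libraries: miR-433-3p was lost without D3 day 7 replicate 3 (-0.92, adjusted p = 0.0818), miR-431-3p without D3 day 7 replicate 2 (-1.04, adjusted p = 0.109), and miR-431-5p without D3 day 7 replicate 2 or 3 or D3 day 21 replicate 2 (adjusted p = 0.0757, 0.14 and 0.0775).

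The lines were compared at each day. At day 0, 0 members were higher in D3 and 1 was lower as deposited, against 0.960% and 46.1% of all miRNAs, and 4 were higher and 0 lower relative, against 7.68% and 15.7%. The 4 were miR-127-3p (0.80 ± 0.13, limma adjusted p = 0.000162), miR-431-5p (0.76, adjusted p = 0.00177), miR-431-3p (1.37, adjusted p = 0.000811) and miR-434-5p (0.71, adjusted p = 0.0162). The call on miR-434-5p was lost without B8 day 0 replicate 3 (adjusted p = 0.071) and without D3 day 0 replicate 2 (0.0576). miR-433-3p joined them without D3 day 0 replicate 2 (0.81, adjusted p = 0.0193), from 0.51 with it (0.182). The member lower as deposited, miR-434-3p at -0.74 (limma adjusted p = 0.0168), was lost without B8 day 0 replicate 1 (-0.65, adjusted p = 0.0797) and without D3 day 0 replicate 3 (-0.51, adjusted p = 0.129), and its relative value was 0.31.

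At day 7, all 10 members were higher in D3 as deposited and 0 lower, against 66.0% and 9.21% of all miRNAs, and 9 were higher and 0 lower relative, against 24.4% and 16.3%. The relative differences of the 9 ran from 1.24 for miR-127-3p (limma adjusted p = 3.63e-06) to 4.29 for miR-136-5p (adjusted p = 5.76e-05). miR-433-3p was the exception, at 0.11 (adjusted p = 0.779). Of the 9, miR-433-5p lost its call without D3 day 7 replicate 3 (1.15, adjusted p = 0.154).

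The change from day 0 to day 7 differed between the lines for all 10 members as deposited, each more positive in D3, against 71.8% of all miRNAs more positive and 2.50% more negative. Relative to the median it was more positive for 6 of 10 and more negative for 0, against 20.2% and 12.5%. With equal column totals 1 member was more positive and 1 more negative, but the share of all miRNAs under that scaling is not given here. Under it miR-127-3p, miR-433-3p and miR-431-3p turned to -0.43, -1.27 and -0.37. The 6 were miR-136-5p (4.12), miR-136-3p (2.33), miR-127-5p (1.90), miR-434-3p (1.42), miR-434-5p (1.23) and miR-431-5p (0.91), with limma adjusted p from 0.000488 to 0.00845. For miR-127-3p the relative difference was 0.44 (adjusted p = 0.10), which became 0.55 (adjusted p = 0.0215) without B8 day 7 replicate 3. For miR-433-3p it was -0.40 (adjusted p = 0.471).

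The ratio of the 5p to the 3p arm within a hairpin does not depend on how libraries are scaled, and it was tested over 149 hairpins. Usually 1 arm is loaded into Argonaute and kept, and the other is degraded. In B8 between day 0 and day 7 the ratio fell in 2 of the 5 anti-Rtl1 hairpins, against 5.37% of all hairpins lower, and in D3 in 1 of 5 at day 7 and 1 of 5 at day 21, against 11.4% and 14.8%. None of the 5 rose, against 5.37%, 7.38% and 14.1%. None of the 5 differed between the lines at day 0, at day 7 or in the change, against 7.38%, 3.36% and 3.36% of all hairpins in either direction, or between days 7 and 21 in D3, against 2.01% (limma). At an unadjusted limma p under 0.05 there were 0, 3, 2 and 1 of the 5. The share of all 149 hairpins at that threshold is not given here. The percentages above are for adjusted p and cannot be set beside these counts.

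miR-434 was the hairpin whose ratio fell in all 3 of these comparisons. Its hairpin is shown with the arms in capitals (chr12:109594506-109594599, plus strand, GRCm38.p6).
miR-434 hairpin: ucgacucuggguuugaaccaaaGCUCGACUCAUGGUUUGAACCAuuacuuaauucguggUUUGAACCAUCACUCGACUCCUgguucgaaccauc
The 5p arm made up 29.8%, 34.6% and 29.6% of both arms in B8 at day 0 and 15.8%, 20.7% and 15.8% at day 7. In D3 it made up 37.7% ± 4.45 at day 0, 19.6% ± 0.521 at day 7 and 17.1% ± 2.03 at day 21 (SD). Every day 0 library of both lines lay above every later library. The log2 ratio changed by -1.11 ± 0.28 in B8 (limma adjusted p = 0.0188), by -1.30 ± 0.31 in D3 at day 7 (adjusted p = 0.0111) and by -1.55 ± 0.28 in D3 at day 21 (adjusted p = 0.00153). The first call was lost without B8 day 0 replicate 2 (adjusted p = 0.0785) and without B8 day 7 replicate 1 or 3 (-1.03 for both, adjusted p = 0.0524 and 0.0526). The call of D3 at day 7 was lost without either of its libraries (-1.34 and -1.27, adjusted p = 0.0568 and 0.0766).

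miR-136 has the most even arms of the 5 hairpins by group mean, except in B8 at day 7.
miR-136 hairpin (chr12:109595327-109595388, plus strand): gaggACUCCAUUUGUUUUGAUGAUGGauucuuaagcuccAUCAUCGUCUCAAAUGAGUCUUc
Its 5p arm made up 58.2% ± 0.573 in B8 at day 0 and 14.3% ± 14.3 at day 7 (SD, n = 3), where only 2 to 21 reads per library covered both arms. In D3 it made up 50.3% ± 3.74 at day 0, 33.6% ± 0.870 at day 7 and 60.5% ± 2.07 at day 21. The share was thus lower at day 7 in both lines, without overlap with day 0. The ratio changed by -2.55 ± 0.35 in B8 (limma adjusted p = 0.000577) and by -0.997 in D3 (adjusted p = 0.0979), and by 1.59 between days 7 and 21 in D3 (adjusted p = 0.06). The size in B8 depends on the pseudocount, since the 5p arm had 0 reads in replicate 3 at day 7. Without B8 day 7 replicate 2 the ratio at day 7 was higher in D3 than in B8 (1.53, adjusted p = 0.0168) and the change differed between the lines (1.98, adjusted p = 0.0163); with that library the values were 1.10 (adjusted p = 0.145) and 1.55 (adjusted p = 0.144).

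The other hairpins kept their dominant arm. The 5p arm of miR-431 made up 93.6% to 96.3% of both arms by group mean, that of miR-433 made up 2.02% to 5.92%, and that of miR-127 made up 0.0330% to 0.116%.

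**Figure D3:**
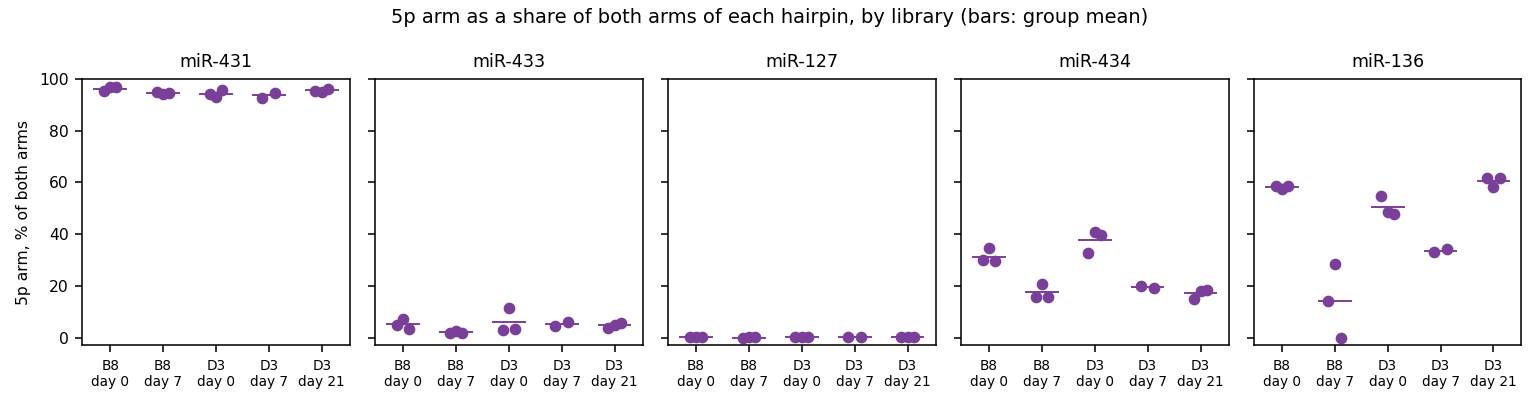
Share of the 5p arm in the signal of both arms of each anti-Rtl1 hairpin, in percent, by library (points) with group means (bars). miR-434 is higher at day 0 than later in both lines, and miR-136 is lowest in B8 at day 7, where it rests on 2 to 21 reads per library.

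miR-127-3p dominated the summed signal of the members, which is again a measure free of library scaling. At day 0 it made up 88.0% ± 0.216 for B8 and 89.7% ± 0.812 for D3, and later 81.5% ± 2.33, 79.6% ± 0.184 and 81.7% ± 0.713 for B8 at day 7, D3 at day 7 and D3 at day 21 (SD). The day 0 libraries lay above all later ones in both lines. miR-434-3p took 4.80% ± 0.266 and 3.51% ± 0.641 of the sum at day 0 in B8 and D3, and 9.35% ± 0.112 and 9.27% ± 0.384 in D3 at days 7 and 21. In B8 at day 7 it took 7.12% ± 2.37, and miR-433-3p took 5.29% ± 1.21, more than in any other group. The whole set held 7.72% ± 0.380 and 2.35% ± 0.104 of the miRNA signal in B8 at days 0 and 7, and 15.0% ± 0.683, 3.54% ± 0.395 and 9.70% ± 1.17 in D3 at days 0, 7 and 21.

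The other miRNAs of the Dlk1-Dio3 region gave 90 entries in the table, of which 67 were tested. In B8 at day 7, 37 were lower and 1 was higher than at day 0 as deposited, and 32 and 1 relative, where 28.0% and 21.9% of all 521 were lower and higher as deposited and 25.7% and 26.9% relative. The region's medians were -1.17 and -1.07 beside -1.21 and -0.98 for the members. The 1 that was higher was miR-370-3p (0.73 ± 0.25, limma adjusted p = 0.0158, relative 0.96, adjusted p = 0.00172), which lies beyond Rtl1 on the Mirg side. miR-411-5p, of the Mirg cluster, changed by -2.35 and miR-337-5p, of the Rtl1 block, by -1.64. In D3 at day 7, 48 were higher and 1 lower as deposited, and 4 higher and 23 lower relative. Of all 521, 70.4% and 6.91% were higher and lower as deposited, and 36.1% and 26.9% relative. The region's medians were 1.58 and -0.59 beside 2.41 and 0.13 for the members. At day 21 the relative counts were 5 higher and 26 lower, where 38.0% and 25.0% of all were, with a median of -0.53 beside 0.26. In D3 against B8 at day 0, 22 of the 67 were higher and 0 lower on the relative scale, where 7.68% and 15.7% of all were. The median was 0.80 beside 0.61 for the members. In D3 against B8 at day 7 the relative counts were 35 and 0, where 24.4% and 16.3% of all were. The median was 1.19 beside 1.805 for the members. In the line difference the relative counts were 10 and 2, where 20.2% and 12.5% of all were. The median was 0.61 beside 1.12 for the members.

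Within a library, the summed signal of the 10 members was 1.19 ± 0.0379 times that of the other 90 entries in B8 at day 0, 1.16 ± 0.188 in B8 at day 7, and 1.10 ± 0.0317, 1.17 ± 0.0380 and 1.52 ± 0.108 times for D3 at days 0, 7 and 21 (SD). Only the D3 day 21 libraries all lay above those of every other group, at 1.42 to 1.64. Without miR-127-3p the ratio was 0.142 ± 0.00195 and 0.113 ± 0.00576 at day 0 in B8 and D3, and 0.212 ± 0.0126, 0.240 ± 0.00561 and 0.278 ± 0.00873 in B8 at day 7 and D3 at days 7 and 21. The 9 less abundant members thus held more signal, beside the rest of the region, in every later library than in any day 0 library.

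**Figure D4:**
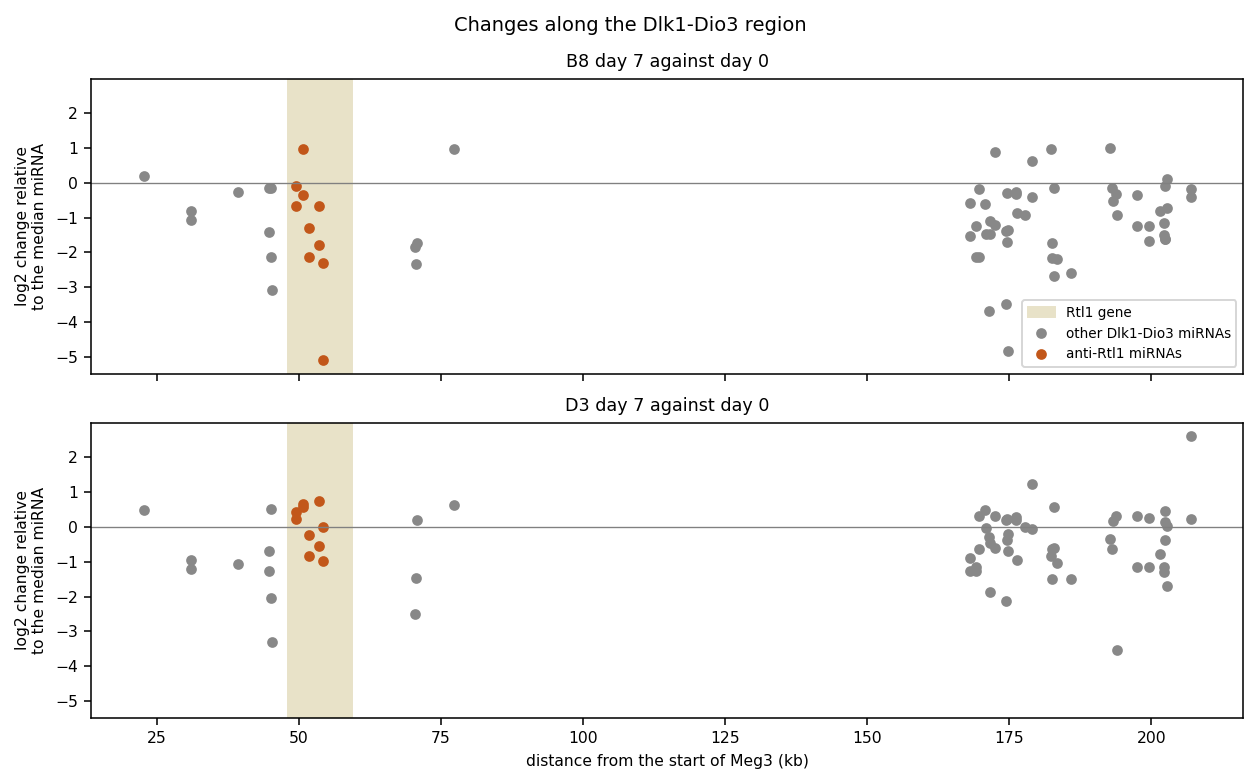
Change relative to the median miRNA (log2, day 7 against day 0) of the tested Dlk1-Dio3 miRNAs by distance from the start of Meg3, in B8 (upper) and D3 (lower). Members are orange, other miRNAs of the region grey, and the Rtl1 gene is shaded from 48.2 to 59.3 kb; in B8 most points of both colours lie below 0, with miR-433-3p at 0.98 the member above it.

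The miRNAs whose level followed miR-127-3p most closely over the 14 libraries, on the relative log2 scale, were miR-411-5p (Pearson r = 0.981), miR-541-5p (0.95), miR-300-3p (0.940), miR-381-3p (0.939) and miR-337-5p (0.937), and all 5 lie in the Dlk1-Dio3 region. The points share group, line and library, so these values are a description. Among the members miR-434-5p (0.929), miR-127-5p (0.928) and miR-136-3p (0.854) were nearest, miR-434-3p stood at 0.617, and miR-433-3p at -0.27. The pattern of miR-433-3p was thus unlike that of the miRNA whose hairpin lies next to its own.

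Markers of other cell types moved with the days, and their part in the changes above was not tested. The miR-290 cluster, at 27.4% and 22.1% of the miRNA signal at day 0, was at 8.60% ± 2.39 in B8 at day 7 (range 5.96 to 10.6) and at 0.668% ± 0.0121 and 1.13% ± 0.0915 in D3 at days 7 and 21 (SD). From day 7 to day 21 in D3, 0 of its 13 tested entries were higher and 10 lower as deposited (median -0.95), and 0 and 2 relative (median -0.25). The miR-302 cluster, the other ESC marker list, held 0.178% ± 0.0115 and 0.0162% ± 0.00599 in B8 at days 0 and 7, and 0.179% ± 0.00683, 0.0220% ± 0.00434 and 0.251% ± 0.0128 in D3 at days 0, 7 and 21. Of its 7 tested entries 4 were higher and 0 lower on day 21 than on day 0 in D3 as deposited, and 3 and 1 relative, and 5 and 0 against day 7 on both scales. Neural miRNAs (miR-9, miR-124 and others, 13 entries) were at 0.105% in both lines at day 0, and at 1.22% ± 0.0426 for B8 and 1.43% ± 0.0355 for D3 on day 7. On day 21 they held 0.774% ± 0.0646 of the D3 signal. Mesenchymal miRNAs (miR-143, miR-145a, miR-199, miR-214, 9 entries) were at 1.73% ± 0.155 and 0.868% ± 0.521 in B8 at days 0 and 7, and at 0.214% ± 0.0327, 1.20% ± 0.256 and 6.34% ± 0.752 in D3 at days 0, 7 and 21. Muscle miRNAs stayed below 0.0043% in the libraries of B8 and of D3 at days 0 and 7, where 6 to 8 of 10 entries were at 0 in a whole group. In D3 at day 21 they were at 0.209% ± 0.119 with 10 of 10 entries detected.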

How the data were processed

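Small RNA of the ESC lines B8 and D3 was sequenced, and 14 libraries in 5 groups entered 1 fit. Of 17 labelled samples in 6 groups, the 3 B8 samples of day 21 are not analysed here. The authors deposited normalized signal labelled TMM (trimmed mean of M-values). Each library's reads per mature miRNA were divided by 1 library factor. How that factor was computed is not given in the sources used here. The submitters' processing notes name CASAVA, FastQC, Bowtie, Partek and mm10, with no versions, and cutadapt and a length step appear in the column titles. How reads matching more than 1 miRNA were counted is not stated. Values up to 1000 reads were multiples of what 1 read is worth in 100% of cases (tolerance 0.01 read), so whole reads were recovered. A row-total column was not used. The value of 3 reads, averaged over a group, was 2.01, 2.72, 1.89, 2.25 and 1.02 in the order B8 day 0, B8 day 7, D3 day 0, D3 day 7 and D3 day 21. Intervals and floors cover counting error only, since PCR copies are not separate molecules.

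The 521 of 1033 miRNAs whose mean share of the column total was 5 per 1000000 or more were kept. Log2 of the value plus 0.48 (2 per 1000000 of the mean total) was fitted with limma 3.58.1 in R 4.3.3: 5 group means, trended prior, 9 residual degrees of freedom, 2-sided tests, 7 comparisons, and Benjamini-Hochberg adjustment over the 521 with a threshold of 0.05. Relative values used median-of-ratios factors over 319 miRNAs above 0 in every library. Arm ratios were fitted likewise over 149 hairpins, with adjustment over the 149. edgeR 4.0.16 (quasi-likelihood, TMM) on the recovered reads was an alternative. Its TMM factors were computed anew, and under them some members of D3 turned direction against the deposited values. The scripts were checked on simulated data. Replicates differed beyond sampling noise (chi-square per degree of freedom 2.90 to 38.4).

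The text names all 10 members, the 3 most abundant entries of each other Dlk1-Dio3 list where they add a comparison, the 5 miRNAs most like miR-127-3p, and miR-10a and miR-10b. miR-370-3p is also the 1 other miRNA of the region that was higher in B8. The members and lists were chosen with earlier results of these data known. Sequences and hairpin positions are from RefSeq (GRCm38.p6), and the Rtl1 transcript from GENCODE on the same build. The hairpins miR-3071 and miR-432 were not used here.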

Additional observations from a re-analysis of the deposited data

Results flagged for a closer look

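The change from day 0 to day 7 differed between D3 and B8, by the test of the difference itself in limma. As deposited, D3 minus B8 was 6.35 for miR-136-5p, 4.79 for miR-136-3p, 4.18 for miR-127-5p, 3.94 for miR-434-3p, 3.75 for miR-434-5p, 3.44 for miR-431-5p, 3.39 for miR-433-5p, 2.99 for miR-431-3p, 2.97 for miR-127-3p and 2.13 for miR-433-3p (log2), with adjusted p between 2.42e-09 and 5.52e-05. The median over all 521 miRNAs was 2.64. Relative to the median miRNA the difference was 4.12 for miR-136-5p, 2.33 for miR-136-3p, 1.90 for miR-127-5p, 1.42 for miR-434-3p, 1.23 for miR-434-5p and 0.91 for miR-431-5p, beside a median of 0.51 over all. All 7 members that fell in B8 were higher in D3 at day 7 than at day 0 as deposited. So were 70.4% of all 521 miRNAs on that scale. Relative to the median miRNA, 1 of the 10 members was higher in D3 and 2 were lower, against 36.1% and 26.9% of all. The sizes for miR-136-5p and miR-127-5p rest on 8 and 4 reads in B8 at day 7. No group holds 4 or more libraries, so single libraries were not examined for standing apart.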

How the results depend on the processing

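Of 2318 values under other settings, 2098 were counted as kept, 115 lost the call, 28 gained it and 77 turned. All 77 turned under a rescaling of the libraries or edgeR with TMM. For a member or hairpin, kept means the same direction and the same side of the threshold. The 2318 and the 2098 also hold descriptive shares and summed ratios with 1 library left out, which have no call. Those counted as kept when they moved by less than their SD. Groups this small cannot fail that rule, so these entries say nothing about robustness. A sign change where neither value was called is counted among those kept. A rescaling divides each library by another factor, which by construction shifts all miRNAs of a group together; for the other settings the cause was not tested. With equal column totals, of the 10 members 0 were higher in B8 at day 7, 0 higher and 9 lower in D3 at day 7, 1 and 2 for its day 21 against day 0, 8 and 0 against day 7, 4 and 0 between the lines at day 0, and 1 and 1 in the line difference. With equal totals outside miR-10a and miR-10b these D3 counts were 2 and 1, 1 and 2, 0 and 0, 4 and 0, with 5 higher in the line difference. With median-of-ratios factors they were 1 and 2, 1 and 1, 2 and 0, 4 and 0, and 6. With edgeR they were 1 and 3, 2 and 1, 5 and 0, 4 and 0, and 6. Among the settings of this section, the share of all miRNAs called is given above only with median-of-ratios factors. The other counts thus show what a setting does and are no result about the members. A prior without trend left 0 higher in B8 at day 7, 0 higher in D3 at day 21 against day 7, and 0 lower in D3 against B8 at day 0. A pseudocount of 0.2 per 1000000, or no filter, left 0 higher in D3 at day 21 against day 7. A pseudocount of 10 per 1000000 gave 2 lower at day 0 between the lines, and for the arm ratios 2 lower in D3 at day 7 and 1 higher at day 21 against day 7. A filter at 50 per 1000000, which tests fewer hairpins, gave 4 arm ratios lower in B8 at day 7, 2 lower in D3 at day 7, 1 higher in D3 at day 21 against day 0, 1 higher against day 7, 2 higher in D3 at day 7 against B8 and 2 in the line difference. Fitting only the groups compared, with fewer samples, gave 1, 0 and 1 for B8 day 7 lower, D3 day 7 lower and D3 day 21 against day 7 higher.

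The turned values of D3 at day 7 against day 0 with equal column totals were -2.26 for miR-127-3p, -0.66 for miR-434-3p, -0.83 for miR-433-3p, -1.17 for miR-431-5p, -1.96 for miR-434-5p, -1.39 for miR-136-3p, -0.98 for miR-431-3p, -0.71 for miR-433-5p, -2.38 for miR-136-5p and -1.59 for miR-127-5p. Outside miR-10a and miR-10b, with median-of-ratios factors and with edgeR they were -0.73, -0.85 and -1.03 for miR-127-3p, -0.43, -0.55 and -0.74 for miR-434-5p, -0.87, -0.98 and -1.23 for miR-136-5p and -0.12, -0.24 and -0.45 for miR-127-5p, and with edgeR -0.20 for miR-136-3p. In D3 at day 21 against day 0, equal column totals gave -0.77 for miR-127-3p, -0.076 for miR-433-3p, -0.11 for miR-431-5p, -0.77 for miR-434-5p, -0.45 for miR-431-3p and -0.15 for miR-433-5p. The other 3 scalings gave -0.57, -0.42 and -0.40 for miR-127-3p, -0.57, -0.41 and -0.39 for miR-434-5p, and -0.25, -0.10 and -0.14 for miR-431-3p. In D3 at day 21 against day 7, equal column totals gave 1.49 for miR-127-3p, 1.44 for miR-434-3p, 0.75 for miR-433-3p, 1.06 for miR-431-5p, 1.19 for miR-434-5p, 1.54 for miR-136-3p, 0.53 for miR-431-3p and 1.67 for miR-127-5p. Median-of-ratios factors gave 0.43 for miR-127-3p and 0.0082 for miR-431-5p, and edgeR gave 0.64 for miR-127-3p, 0.58 for miR-434-3p, 0.21 for miR-431-5p, 0.70 for miR-136-3p and 0.90 for miR-127-5p. For D3 against B8 at day 0, equal column totals, equal totals outside miR-10a and miR-10b, median-of-ratios factors and edgeR gave 0.99, 0.98, 0.80 and 0.72 for miR-127-3p, 0.50, 0.49, 0.31 and 0.26 for miR-434-3p, 0.94, 0.93, 0.76 and 0.67 for miR-431-5p, and 0.90, 0.89, 0.71 and 0.63 for miR-434-5p. At day 7 equal column totals and edgeR gave -0.57 and -0.18 for miR-433-3p. In the line difference equal column totals gave -0.43 for miR-127-3p, -1.27 for miR-433-3p and -0.37 for miR-431-3p, and the other 3 scalings gave -0.57, -0.40 and -0.69 for miR-433-3p.

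Leaving out 1 library at a time, the number higher in B8 at day 7 ran from 0 to 1, the number higher in D3 at day 21 against day 7 from 0 to 1 and lower from 1 to 3, and the number lower in D3 at day 0 against B8 from 0 to 2. On the relative scale the number higher in D3 at day 7 ran from 1 to 2 and lower from 1 to 2, lower at day 21 against day 0 from 0 to 1, and higher at day 21 against day 7 from 0 to 2. The number of arm ratios lower in B8 at day 7 ran from 1 to 2 and in D3 at day 7 from 0 to 1, and higher in D3 against B8 at day 7 and in the line difference from 0 to 1. Of 26 same-numbered pairs of samples, correlations of their deviations ran from -0.127 to 0.135, 24 of them at or below 0.1. Of 14 samples, 4 correlated best with their own number. Deviations within groups of 2 or 3 libraries are tied to each other. The check therefore cannot tell whether same-numbered samples share a culture or a run. With the replicate block, none of 217 compared values and counts was labelled as changed, though a small shift of a count was not labelled. In those fits 10 members were higher in the line difference.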
